A study of Rattus norvegicus with 48 samples.

Results

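Testis RNA of rats dosed with myclobutanil at 30 mg/kg, the lowest dose used, was compared with testis RNA of vehicle rats. The 12 libraries compared, of 48 in all, are those whose titles name the testis and either the vehicle (6 libraries, 2403 to 2408) or 30 mg/kg (6 libraries, 2409 to 2414). All came from adult male Crl:CD (SD) Sprague-Dawley rats, 8 to 10 weeks old when dosing began, gavaged once a day for 14 days. Every group received corn oil at 4 ml/kg, alone in the vehicle group and with myclobutanil in the other. Testis groups at 150 and 400 mg/kg, of 6 libraries each, shared the model, and liver libraries bore the same title numbers. Whether each library is a separate animal is not stated in the labels, and a p-value here refers to differences among libraries of a group, which may be technical. The titles and the dose label (0) make 2407 and 2408 vehicle libraries, while a further label of theirs gives myclobutanil; they were kept in the vehicle group. None of the 12 libraries is marked as an outlier in the labels.

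Myclobutanil is a triazole fungicide. Triazoles block the fungal sterol 14-alpha demethylase, a cytochrome P450 that also exists in mammals, where it acts in cholesterol synthesis. The testis makes sperm in seminiferous tubules, where germ cells in all stages from spermatogonia to elongated spermatids are nursed by Sertoli cells, and makes testosterone from cholesterol in the Leydig cells between the tubules. Meiotic and later germ cells express a very large share of the genome, including many genes that are silent elsewhere. In such bulk tissue, fewer cells of a type and less RNA per cell cannot be told apart. Genes are known here only by their Ensembl rat IDs, so pathway and cell type lists could not be applied, and the labelled tissue could not be checked against named markers.

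Reads assigned to genes numbered 32.0 to 45.5 M in the vehicle libraries (35.1 ± 5.14, SD, n = 6) and 32.0 to 44.7 M at 30 mg/kg (36.4 ± 4.49, SD, n = 6; exact permutation test, 2-sided, p = 0.580). The deepest library of each group, 2408 and 2414, also had the lowest share of reads of low mapping quality, 2.53% and 2.52% against 2.72% to 2.84% in the other 10. They were treated as a depth set of their own, inferred from these values, and each group held 1 of them. The other 10 libraries are called the first depth set. All testis libraries of the higher doses had a low share too, 2.521% to 2.563% at 150 mg/kg and 2.517% to 2.575% at 400 mg/kg. A model term for the depth set, used below, marked only the deepest library of each dose and does not code for this split. Against vehicle, the higher doses thus differed in this share from every library but 2408, so dose and this split cannot be told apart. Pairs of libraries within a group differed by more than sampling noise (chi-square per degree of freedom 7.45 to 36.6 over 30 pairs), so none was counted as a duplicate.

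At 30 mg/kg, almost no gene of the testis passed the test. Of 17261 genes tested, 1 was called at an adjusted p under 0.05 (0.00579%), and it was higher. None was called lower. At an unadjusted p under 0.05 there were 1808 genes (10.5%), 865 higher (5.01%) and 943 lower (5.46%), where a flat distribution of p would give 863 in all. The 2 groups of 6 libraries did not overlap for 135 genes (0.782%), 58 of them higher (0.336%) and 77 lower (0.446%) at 30 mg/kg. The test was edgeR's quasi-likelihood test with Benjamini-Hochberg adjustment. The number of calls rested on the tool and on library 2412: DESeq2 called 42 genes (17 higher, 25 lower), limma-voom with quality weights 10 (1 higher, 9 lower), and edgeR without 2412 called 61.

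The called gene was ENSRNOG00000051690, a gene of few reads. Its level in the vehicle libraries 2403 to 2408 was 0.351, 0.627, 0.622, 0.499, 0.400 and 0.447 CPM (counts scaled to a common library size by the TMM method). In 2409 to 2414 it was 1.15, 0.932, 1.28, 1.18, 1.49 and 1.63 CPM. Every treated library thus lay above every vehicle library, on 33 to 74 reads against 12 to 21. The means were 0.491 ± 0.115 and 1.28 ± 0.251 CPM (SD, n = 6 each), a log2 fold change of 1.38 (SE 0.23, 95% interval 0.91 to 1.87, edgeR adjusted p = 0.0451).

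The higher doses did not show a larger value for ENSRNOG00000051690. Against the same vehicle libraries, its level at 150 mg/kg was 0.644 ± 0.170 CPM (SD, n = 6; log2 fold change 0.39, SE 0.24, edgeR adjusted p = 0.841). At 400 mg/kg the level was 0.746 ± 0.324 CPM (SD, n = 6; log2 fold change 0.60, SE 0.24, edgeR adjusted p = 0.159). Its liver level was 1.97 ± 1.09 CPM in vehicle libraries and 1.77 ± 0.389 CPM in those of 30 mg/kg (SD, n = 6 each). The call at 30 mg/kg held with DESeq2 (adjusted p = 0.000336) and limma-voom (adjusted p = 0.0234). In edgeR it held with RLE factors (adjusted p = 0.0450), no filter on low counts (0.0311), only the 12 libraries compared (0.0281) and a fit that was not robust (0.0438). The call was lost when any 1 library other than 2410 or 2412 was left out, with a log2 fold change of 1.30 to 1.47 over all 12 omissions and an edgeR adjusted p of up to 0.145. It was also lost without 2407 and 2408, the libraries of conflicting labels (1.29, edgeR adjusted p = 0.173), with the depth set as a term (1.38, edgeR adjusted p = 0.0599), and within the first depth set, 5 against 5 (1.27, edgeR adjusted p = 0.178).

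The gene with the lowest p among those lower at 30 mg/kg was ENSRNOG00000020543, and its difference was small. Vehicle libraries 2403 to 2408 held 37.1, 40.9, 40.0, 39.5, 38.2 and 38.6 CPM, and libraries 2409 to 2414 held 33.0, 35.4, 33.2, 35.1, 33.7 and 32.8 CPM. The groups did not overlap, with the nearest libraries, 2403 and 2410, at 37.1 and 35.4 CPM. The log2 fold change was -0.21 (SE 0.037, 95% interval -0.28 to -0.13, edgeR adjusted p = 0.0598), short of the threshold.

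The other doses give a reference for ENSRNOG00000020543, with the limit on mapping quality given above. At 150 mg/kg it stood at 36.8 ± 1.41 CPM (SD, n = 6; log2 fold change -0.09, edgeR adjusted p = 0.776) and at 400 mg/kg at 33.2 ± 1.13 CPM (SD, n = 6; -0.24, SE 0.037, edgeR adjusted p = 0.00385), both against the vehicle libraries used for 30 mg/kg. Among 573 genes called at 400 mg/kg it fell, while at 150 mg/kg, where 4 genes were called, it was not called. In liver, vehicle libraries held 15.7 ± 0.771 CPM and the 30 mg/kg libraries 16.7 ± 0.938 CPM (SD, n = 6 each). The difference at 30 mg/kg passed the threshold with DESeq2 (adjusted p = 0.000336), with limma-voom (adjusted p = 0.0234), in an edgeR fit that was not robust (adjusted p = 0.0438) and in edgeR without 2412 (adjusted p = 0.0320). It fell short in every other edgeR setting, with an adjusted p of 0.541 within the first depth set. With only the 12 libraries compared the edgeR adjusted p was 0.282. Without the vehicle libraries of conflicting labels it was 0.173, and without 2406 it was 0.272.

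ENSRNOG00000018994 came next in that direction. It ranged from 53.2 CPM in 2403 to 55.9 CPM in 2408 among vehicle libraries and from 47.9 to 49.6 CPM at 30 mg/kg, where 2412 held the highest value. The groups were apart by more than the range of either, and the log2 fold change was -0.18 (SE 0.035, edgeR adjusted p = 0.0927). DESeq2 (adjusted p = 0.000584), limma-voom (adjusted p = 0.0234) and edgeR without 2412 (adjusted p = 0.0431) put it past the threshold. Every other edgeR setting left it short, with an adjusted p of 0.541 within the first depth set. With only the 12 libraries compared the edgeR adjusted p was 0.282. Without the vehicle libraries of conflicting labels it was 0.173, and without 2406 it was 0.272. At 150 and 400 mg/kg its log2 fold change from the same vehicle libraries was -0.09 and -0.10 (edgeR adjusted p = 0.770 and 0.111).

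ENSRNOG00000032208 led the genes of at least 1 CPM that were higher at 30 mg/kg. Vehicle libraries held 0.871 to 1.17 CPM (0.974 ± 0.118, SD, n = 6) and treated libraries 1.15 to 1.60 CPM (1.45 ± 0.167, SD, n = 6). The groups overlapped by 1 library on each side, 2403 and 2413. The log2 fold change was 0.57 (SE 0.13, edgeR adjusted p = 0.176), and 0.30 and 0.36 at 150 and 400 mg/kg (edgeR adjusted p = 0.770 and 0.102).

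**Figure D1:**
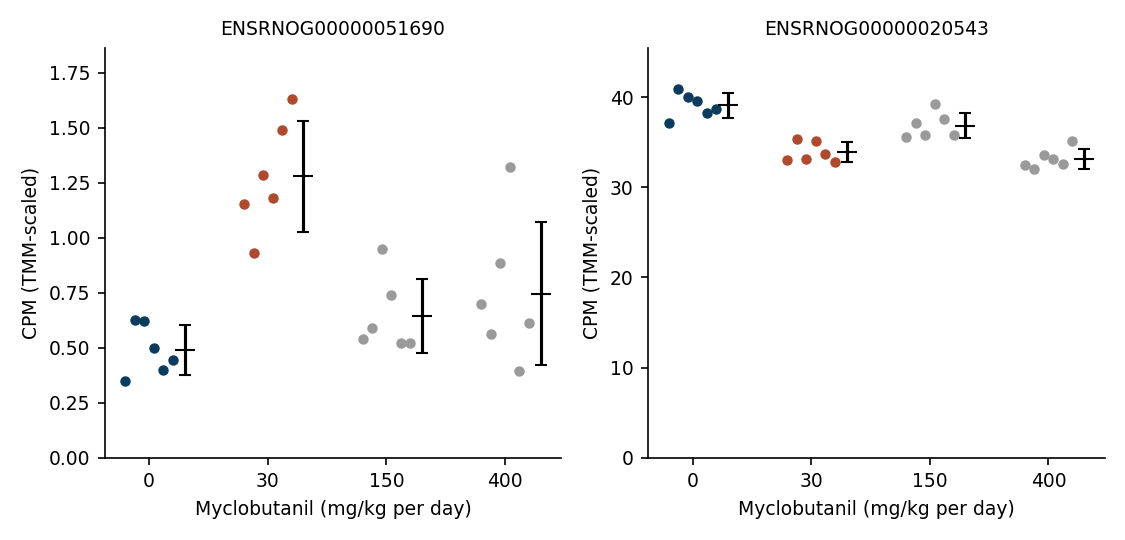
TMM-scaled CPM of ENSRNOG00000051690 (left) and ENSRNOG00000020543 (right) in each testis library by dose in mg/kg per day, with the mean and SD of 6 libraries at the side of each group. On the left the 30 mg/kg group (0.932 to 1.63 CPM) lies above vehicle and above the means of the higher doses; on the right 30 and 400 mg/kg lie below vehicle by about the same amount, and 150 mg/kg lies between.

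The 10 genes of lowest p in each direction, among those of at least 1 CPM with all 6 treated libraries above, or all below, the vehicle mean, showed differences of the same order. The 10 higher genes had log2 fold changes of 0.18 to 0.57 and edgeR adjusted p-values of 0.176 to 0.199; in 5 of them the groups did not overlap. In the 10 lower genes the log2 fold change was -0.41 to -0.16 with an edgeR adjusted p of 0.0598 to 0.176, and the groups did not overlap in 9. These genes were picked for their p, so the counts are a description. By the ratio of testis to liver at 150 and 400 mg/kg, 2 of the higher and 4 of the lower genes were at least 8-fold higher in testis ("testis-high"), and the other 14 were within 8-fold of their liver level ("shared").

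How large an effect could have gone unseen depended on how many reads a gene had. The 95% interval of the fold change lay wholly within 1.5-fold in either direction for 14095 genes (81.7%), within a rise of 25% and the reciprocal fall for 10074 (58.4%) and within 2-fold for 16373 (94.9%). A test of equivalence, with 2 one-sided tests against a 1.5-fold limit in each direction and Benjamini-Hochberg adjustment, passed for 14628 genes (84.7%). For the median gene the largest fold change inside the interval was 1.21, and for 90% of genes it was at most 1.71.

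The classes of mean level, which count reads and not molecules per length, differed widely. For the 2240 genes over 100 CPM, the interval lay within the 25% limit in 96.3% and within 1.5-fold in 99.7%, and the median of the largest fold change inside it was 1.12. For the 6477 genes at 10 to 100 CPM those values were 88.2%, 97.8% and 1.14. A change of 1.5-fold was thus outside the interval for nearly every gene of at least 10 CPM.

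Lower down, precision fell away. For the 5769 genes at 1 to 10 CPM the interval lay within the 25% limit in 38.2%, within 1.5-fold in 83.9% and within 2-fold in 96.2%. For the 2775 genes under 1 CPM it lay within the 25% limit in 0.108%, within 1.5-fold in 24.9% and within 2-fold in 77.6%. In that lowest class, a gene of median SE needed a 2.91-fold difference to be called as the first gene of the table, against 1.69-fold at 1 to 10 CPM, 1.29-fold at 10 to 100 CPM and 1.23-fold over 100 CPM.

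**Figure D2:**
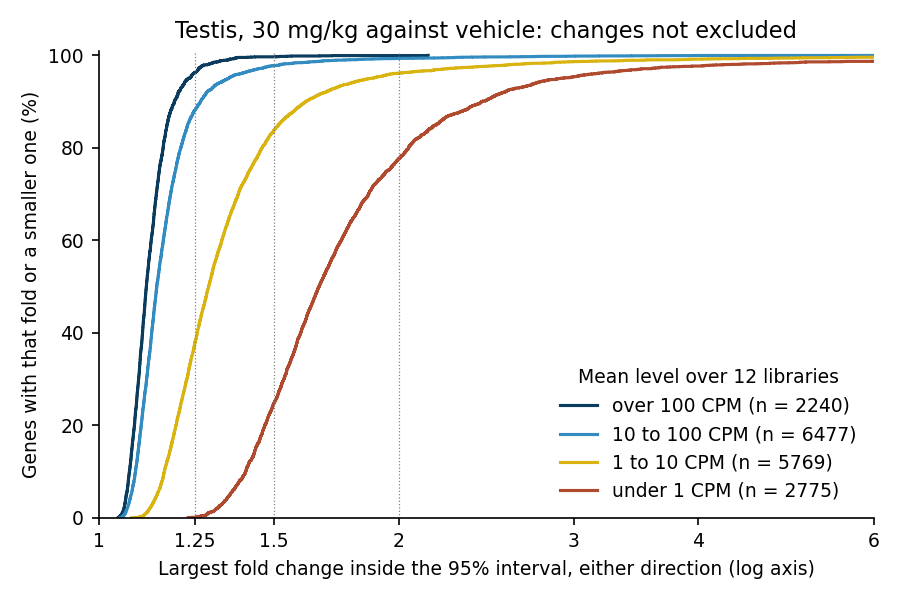
Largest fold change inside each gene's 95% interval, in either direction and on a log axis, against the share of genes of the class with that value or a smaller one; dotted lines mark the 25% limit, 1.5-fold and 2-fold. The curves shift to the right as the mean level falls, and at 1.5-fold they stand at 99.7%, 97.8%, 83.9% and 24.9% for genes over 100, at 10 to 100, at 1 to 10 and under 1 CPM.

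In the other direction, the interval lay wholly beyond the 25% limit for 19 genes, 15 higher and 4 lower, and wholly beyond 1.5-fold for 5. These intervals are per gene and carry no adjustment over the 17261 genes. The unadjusted p was under 0.05 for 5.87% of genes under 1 CPM, 7.71% at 1 to 10 CPM, 13.6% at 10 to 100 CPM and 14.3% over 100 CPM. Over 100 CPM, 204 such genes were lower and 117 higher, whereas under 1 CPM 50 were lower and 113 higher.

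Precision also differed with tissue restriction. Among 5402 testis-high genes the interval lay within 1.5-fold in 87.4%, among 10718 shared genes in 80.0%, and among 1141 genes at least 8-fold higher in liver ("liver-high") in 69.6%. An unadjusted p under 0.05 was found for 9.74% of testis-high, 11.3% of shared and 6.57% of liver-high genes. The median log2 fold change was within 0.01 of 0 in each of these 3 classes. Level differed between the classes as well. Among genes of at least 1 CPM, 637 of 831 liver-high genes were at 1 to 10 CPM. For shared genes this was 3215 of 8494, and for testis-high genes 1917 of 5161. Level and tissue restriction were not separated here.

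Only ENSRNOG00000033680 and ENSRNOG00000020775 were called in liver at this dose by the same edgeR test, both higher. They give a point of reference, chosen after their values were seen. ENSRNOG00000033680 went from 4.88 ± 1.76 to 77.3 ± 32.1 CPM in liver (SD, n = 6 each; log2 fold change 3.98, SE 0.37, edgeR adjusted p = 2.00e-05). In testis it was read 14 to 35 times per library, with a mean of 0.563 ± 0.146 CPM for vehicle against 0.619 ± 0.097 CPM for treated libraries (SD, n = 6 each). The groups overlapped, and the log2 fold change was 0.15 (SE 0.22, 95% interval -0.30 to 0.60, edgeR adjusted p = 0.852). The upper end of the testis interval is 1.52-fold. ENSRNOG00000020775 rose from 34.0 ± 12.8 to 180 ± 65.0 CPM in liver (SD, n = 6 each; log2 fold change 2.40, edgeR adjusted p = 0.000479), but had 0 to 2 reads per testis library and was not tested there.

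More reads lay outside genes in 5 of the 6 treated libraries, but the difference between the groups did not pass the adjusted threshold. Reads aligned outside genes made up 11.09%, 11.08%, 11.23%, 10.95%, 11.22% and 11.17% of all reads in vehicle libraries 2403 to 2408, and 12.08%, 11.94%, 11.41%, 11.09%, 11.66% and 12.03% in 2409 to 2414. Library 2412 lay among the vehicle libraries, and the other 5 treated libraries lay above all 6 of them. The means were 11.12% ± 0.106 and 11.7% ± 0.392 (SD, n = 6 each; exact permutation test, 2-sided, p = 0.0108, adjusted p = 0.0866 over 8 measures). Without 2412, left out because it was known to stand apart, the treated mean was 11.8% ± 0.283 (SD, n = 5); that omission removes the 1 treated library among the vehicle values, so this is a description. Within the first depth set, 5 against 5, the difference was 0.522 percentage points (exact permutation p = 0.0318, adjusted p = 0.191).

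Reads outside genes made up 11.3% ± 0.204 at 150 mg/kg and 11.6% ± 0.208 at 400 mg/kg (SD, n = 6 each), no larger a share than at 30 mg/kg. At 400 mg/kg all 6 libraries (11.36% to 11.94%) lay above the vehicle range (10.95% to 11.23%). Libraries of 150 mg/kg (11% to 11.51%) overlapped that range. These doses were not tested against vehicle for this share. Their libraries also held fewer reads of low mapping quality than every vehicle library but 2408, so dose cannot be told apart from that difference. The 10 most abundant genes of a library took 4.79% to 5.44% of gene reads with vehicle (5.04% ± 0.228, SD, n = 6) and 4.36% to 5.74% at 30 mg/kg (4.85% ± 0.478, SD, n = 6; exact permutation test, 2-sided, p = 0.403, adjusted p = 0.566). Library 2412 held the highest value of all 12, and the other 5 treated libraries lay below the vehicle mean. Without 2412, by the same choice, the treated mean was 4.67% ± 0.215 (SD, n = 5). None of the other measures, such as reads not aligned or not uniquely aligned, had an exact permutation p under 0.05 at 6 against 6. For ambiguous reads it was 0.0952, and 0.0476 within the first depth set, 5 against 5 (adjusted p = 0.19). Library 2412 held the highest share of ambiguous reads in the treated group, 0.795%. Without it the treated mean was 0.771%, against 0.789% for vehicle, a description by the same choice.

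**Figure D3:**
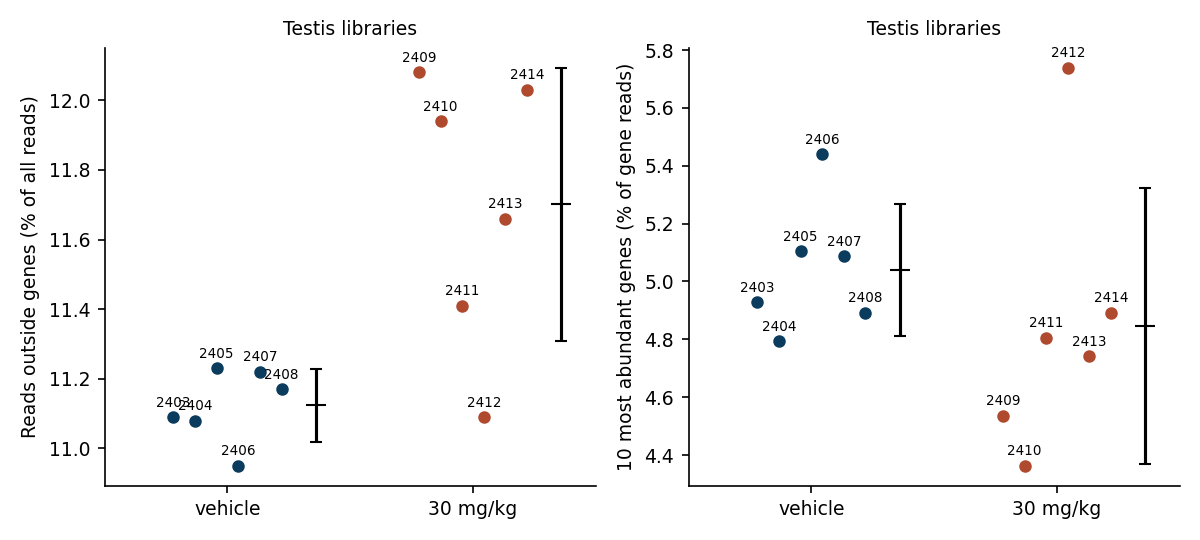
Share of all reads that aligned outside genes (left) and part of the gene reads that fell on the 10 most abundant genes (right) in the 6 vehicle and 6 30 mg/kg testis libraries, in percent on axes that do not start at 0, with the mean and SD at the side of each group. Library 2412 stands at 11.09% on the left, within the vehicle range, and at 5.74% on the right, above every other library, on the opposite side of the vehicle mean from the other 5 treated libraries.

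Library 2412 stood apart in the bulk of its genes, not in a few extreme ones. Each library was set against the median of the other 5 of its group over 14486 genes of at least 1 CPM, on a log2 scale. The SD of these deviations was 0.328 in 2412, 0.306 in 2414 and 0.263 to 0.288 in the other 10 libraries. A robust spread (scaled median absolute deviation), which ignores extreme genes, was 0.249 in 2412 and 0.130 to 0.158 in the other 11, 2414 included. In 2412, 230 genes lay over 1.5-fold above the group and 465 below; the count past 2-fold was 128, within the 93 to 152 of the others.

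The deviation of 2412 followed the level of the genes. Its median log2 deviation was -0.13 for genes at 1 to 10 CPM, -0.02 at 10 to 100 CPM, 0.14 at 100 to 1000 CPM and 0.30 for the 90 genes over 1000 CPM. In the other 11 libraries these medians stayed between -0.03 and 0.04 in the lowest and between -0.12 and 0.07 in the highest class. The genes over 1000 CPM accordingly took 20.49% of gene reads in 2412, against 18.65% to 19.65% in vehicle libraries and 17.57% to 18.57% in the other 5 treated libraries. Its TMM factor was 0.913 against 0.979 to 1.05 in the other 11. That factor scales all genes of a library alike, so it cannot remove a skew with level. The deviations given here were taken after TMM scaling.

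Tissue restriction went with the deviation as well. Testis-high genes (5161) had a median log2 deviation of 0.10 in 2412, shared genes (8494) of -0.06 and liver-high genes (831) of -0.22. The ranges in the other 11 libraries were -0.05 to 0.02, -0.01 to 0.02 and -0.07 to 0.12. Within testis-high genes the median climbed with level, from -0.00 at 1 to 10 CPM to 0.30 over 1000 CPM (85 genes), and within shared genes from -0.16 at 1 to 10 CPM to 0.08 at 100 to 1000 CPM (833 genes). Within liver-high genes it did not climb: it was -0.24 at 1 to 10 CPM, -0.20 at 10 to 100 CPM and -0.33 for the 8 genes at 100 to 1000 CPM. Of the liver-high genes, 12.4% lay over 1.5-fold below the group in 2412, against 2.71% of testis-high and 2.61% of shared genes.

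Library 2410 leaned the other way, with -0.12 for genes over 1000 CPM, 0.11 for liver-high and -0.05 for testis-high genes. It also had the lowest share in the 10 most abundant genes, 4.36%, and 11.94% of reads outside genes, where 2412 had the lowest share of the treated group. What the lean of 2412 comes from was not tested; its depth (34.3 M gene reads) was within the range of the other libraries, and the liver library of the same number had a spread of 0.329, within the 0.320 to 0.368 of the 12 liver libraries.

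**Figure D4:**
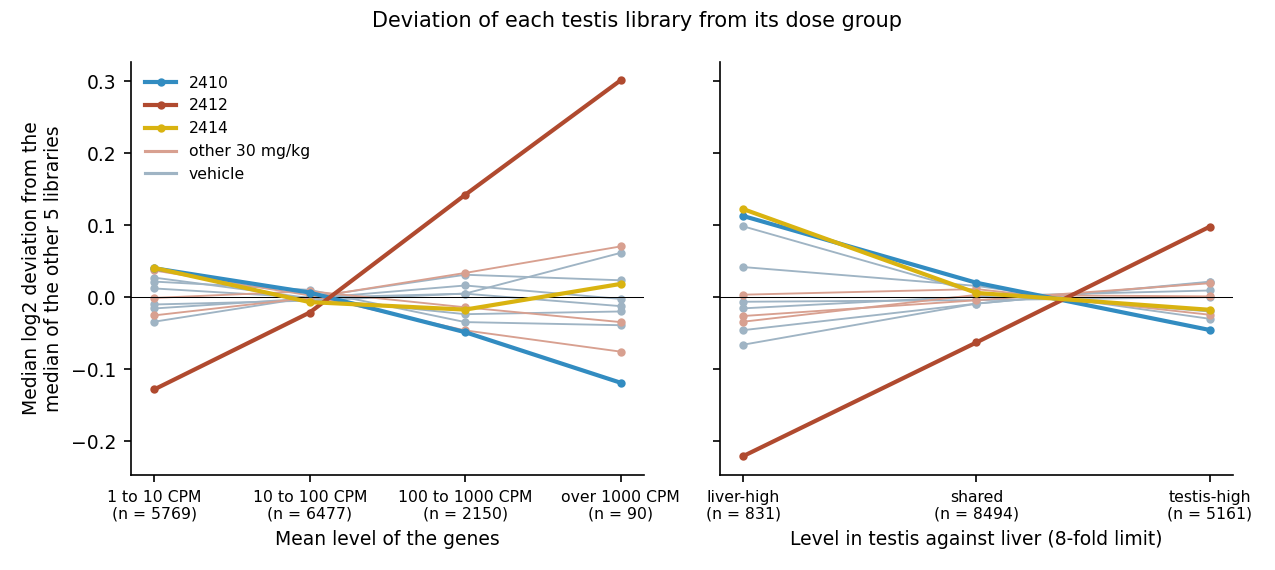
Median log2 deviation of each of the 12 testis libraries from the median of the other 5 of its group, for genes classed by mean CPM (left) and by level in testis against liver with an 8-fold limit (right). Library 2412 climbs from -0.13 to 0.30 with level and from -0.22 for liver-high to 0.10 for testis-high genes, while the other 11 stay within -0.12 to 0.12 and 2410 runs in the opposite direction.

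Library 2414 differed in another way. It had 343 genes over 1.5-fold above its group and 227 below. Of these, 283 of the 343 and 188 of the 227 were at 1 to 10 CPM, as were 5769 of all 14486 genes. Among the 343, 139 were testis-high, 134 shared and 70 liver-high, or 2.69%, 1.58% and 8.42% of those classes. Its medians by level were near 0, from -0.02 to 0.04. For liver-high genes its median was 0.12, the highest of the 12 libraries, with 2410 next at 0.11. The deepest vehicle library, 2408, shared 66 of the deviating genes in the same direction with 2414 and 51 in the opposite direction; the other 35 pairs of a vehicle and a treated library shared 38 to 74 in the same direction. The 66 genes shared by the 2 deepest libraries lay within that range, above the median of the other pairs, 51.

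Within groups, the variation was spread over several sources. Expected counting noise made up 15.4% of the within-group sum of squares of log2 CPM, and 42 genes with an on/off pattern, described next, made up 20.4%. The most variable 1% of genes held 37.0%. Without the on/off genes, the first principal component held 17.1% of the rest, and 60.5% of it came from 2412 (score 26.8, others -12.4 to 6.13). The second held 13.1% and set 2414 apart (score 23.6, others -8.38 to 7.64). Even so, 2412 held only 11.9% of all variation within groups, where an equal share is 8.33%.

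The on/off genes, 42 of 14486 (0.290%), were those in which the sorted libraries were divided by a gap of at least 4-fold with 2 or more libraries on each side. The gap was 4.04- to 50.3-fold, with a median of 8.34-fold. Of the 42, 26 were testis-high, 15 shared and 1 liver-high. The high state was found in 2 to 10 libraries per gene, and each library was high for 19 to 30 of the genes, 2412 for 26. It was commoner among treated libraries for 14 genes, among vehicle libraries for 12 and equal for 16. None of the 42 was called by edgeR, and 0 had an unadjusted p under 0.05 (10.5% over all genes). The 42 were picked from these same libraries for a wide gap, which widens their spread within groups and makes a low p unlikely. The 0 and the 10.5% therefore cannot be compared.

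ENSRNOG00000042547, chosen after its values were seen, had the widest gap. Its testis level was 10.1, 10.7, 10.1 and 10.5 CPM in libraries 2406, 2407, 2410 and 2412, and 0 to 0.146 CPM in the other 8. The 4 high libraries were evenly divided, 2 vehicle and 2 treated, and the log2 fold change was -0.04 with an SE of 1.6 (edgeR adjusted p = 0.997). In liver, the libraries of the same 4 numbers were high, at 8.36, 10.5, 7.94 and 7.61 CPM, and the other 8 held 0 to 0.126 CPM. Of the 42 genes, 12 had at least 1 CPM in liver, and in 6 of these the liver libraries were divided into the same title numbers with the same direction; in 0 they were divided in reverse. For those 6 genes the state went with the title number in both tissues; why was not tested.

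**Figure D5:**
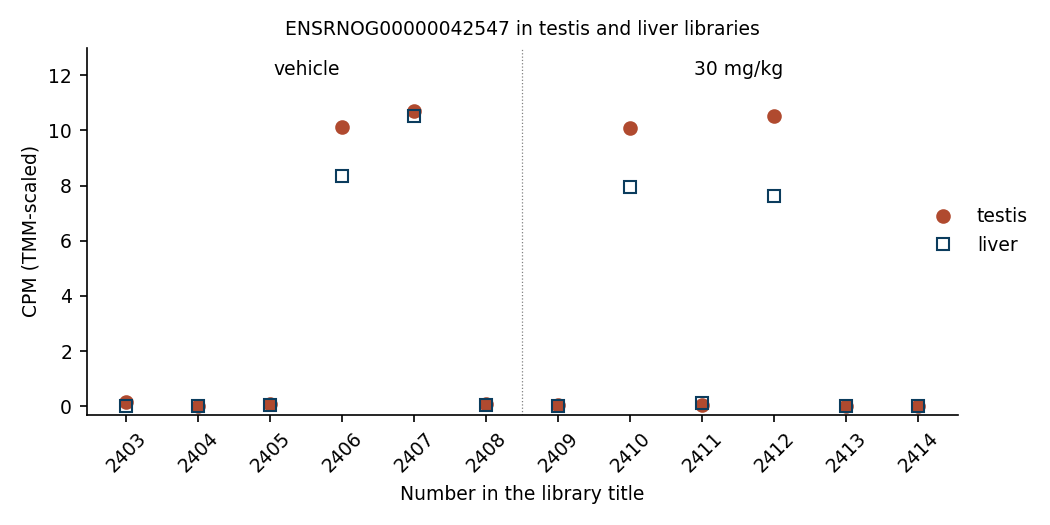
TMM-scaled CPM of ENSRNOG00000042547 in the testis (filled circles) and liver (open squares) library of each title number, vehicle on the left and 30 mg/kg on the right. Numbers 2406, 2407, 2410 and 2412 are at 7.61 to 10.7 CPM in both tissues and the other 8 are at 0 to 0.146 CPM.

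Leaving out 2412 changed the count of calls more than any other single library did. Without it, edgeR called 61 of 17366 genes (0.351%), 14 higher and 47 lower, at log2 fold changes of -0.70 to 1.41. The changes were small, with a median of 1.20-fold for the higher and 1.16-fold for the lower genes, and 2 of the 61 reached 1.5-fold. Of the 61, 28 were testis-high, 33 shared and 0 liver-high, and 27 were over 100 CPM, 24 of these lower. Among the 17261 genes tested with 2412 included, 5402 were testis-high, 10718 shared and 1141 liver-high, and 2240 were over 100 CPM. Genes over 100 CPM also needed the smallest difference to be called, as given above.

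With 2412 included, all 61 had the same direction, 59 had an unadjusted p under 0.05, and the edgeR adjusted p was 0.0451 to 0.487. In 2412 itself, 52 of the 61 lay nearer to the vehicle mean than the mean of the other 5 treated libraries did, and 38 lay past the vehicle mean. All but 1 of the 61 were called only without 2412, which favours genes where 2412 lies toward vehicle. The 52 and 38 thus follow largely from how the genes were picked, and no such count over all genes is given. The omission was chosen because 2412 was known to stand apart, so these 61 genes are a description of the other 5 treated libraries and not a second test. Leaving out each of the other 11 libraries in turn gave 0 calls by edgeR, with 1475 to 1937 genes at an unadjusted p under 0.05, except for 1 call without 2410.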

How the data were processed

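The deposited values are raw counts of reads, whole numbers, for each Ensembl gene of the rat, with a separate file for every library. A stranded mRNA kit was used, per the labels' protocols. The submitters' processing notes name CASAVA 1.8, HISAT2 and HTSeq 0.6.1. Genome build and strand setting: not given in the sources used here. Without a stated strand setting, overlapping and antisense genes cannot be told apart, and genes with near-identical copies lose reads. The 5 lines of each file that name no gene held 34.9% to 36.9% of reads in the 12 libraries and entered neither library sizes nor tests. None of the 32545 IDs matched a symbol (0 of 47357 genes in the reference table), so the gene lists could not be used.

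Differential expression was fitted in edgeR 4.0.16 (R 4.3.3) on all 24 testis libraries, with filterByExpr, TMM scaling and a robust quasi-likelihood fit of 1 mean per dose; p-values are 2-sided and Benjamini-Hochberg adjusted over all genes tested, with a call at 0.05. Standard errors are Wald errors of the fit, and 95% intervals use the t distribution. Shares of reads were compared with exact permutation tests, 2-sided, over 8 measures; 6 against 6 libraries allow a smallest p of 0.00216. Tissue classes used the 150 and 400 mg/kg libraries, which are not compared here, with 0.1 CPM added. Log2 CPM used a prior count of 2. Alternatives were RLE factors, DESeq2 1.42.0, limma-voom 3.58.1, other filters, samples and depth sets, and each library left out. Named genes are all those called, and those of lowest p with at least 1 CPM and all treated libraries above, or all below, the vehicle mean, with at most 2 IDs in each direction; others are marked as chosen later. Intervals for fold changes cover the spread between libraries and not the choice of tool. The steps were tested on simulated data. The comparison, the lists and the named library 2412 were chosen with earlier results of these data known.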

Additional observations from a re-analysis of the deposited data

Results flagged for a closer look

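Of 30 sets of 6 libraries examined, 5 had a library far from the rest of its group (Dixon's test), where chance gives about 1 in 20. Vehicle library 2408 had 45.5 M gene reads, against 32.0 to 33.9 M in the other 5, and 2.533% of reads of low mapping quality, against 2.749% to 2.813%. At 30 mg/kg, library 2414 had 2.515% of such reads, against 2.724% to 2.836%. ENSRNOG00000018994 stood at 53.16 CPM in vehicle library 2403, against 54.96 to 55.9 CPM, which is on the side of the treated group but above all of its libraries. ENSRNOG00000033680 stood at 0.8403 CPM in vehicle library 2405, against 0.409 to 0.568 CPM. Library 2412 was not among the 5, but the robust spread of deviations, by which it stood apart, was not among the sets examined.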

How the results depend on the processing

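No paired analysis was possible because the vehicle and 30 mg/kg libraries share no title number. Of the count of 1 called gene, edgeR gave 2 calls when not robust, 0 with a mean CPM of at least 1, 0 without 2407 and 2408, 0 with the depth set as a term, and 0 to 61 with 1 library left out. The CPM minimum removed ENSRNOG00000051690, whose mean was under 1 CPM, so that gene was not tested there. Without 2407 and 2408, edgeR gave 1970 genes at an unadjusted p under 0.05, with the depth set as a term 1777, and with the CPM minimum 1667. DESeq2 called 42, limma-voom 10, and DESeq2 with independent filtering, added after seeing the data, 105 (43 higher, 62 lower). RLE factors, no filter, only the 12 libraries, a 1.5-fold minimum and the first depth set each gave 1; in the last it was another gene. Apart from that removal, causes of these differences were not tested. The share of genes whose interval lay within 1.5-fold (81.7%) was 57.8% with no filter on low counts, 92.5% with a mean CPM of at least 1, 73.6% for a 99% interval, 76.2% without 2407 and 2408, and 79.1% to 79.8% with 1 library left out; the filters change which genes are in the denominator. Among genes of at least 10 CPM, the deviation of 2412 had an SD of 0.233, still the highest (others 0.151 to 0.176). A minimum gap of 8-fold left 22 on/off genes. With 1 library left out, the group difference ranged from -0.0467 to 0.0386 percentage points for reads of low mapping quality, from -0.329 to 3.40 M for gene reads, both changing sign, and from 0.503 to 0.701 percentage points for reads outside genes. Low counts limit what can be seen: under 1 CPM most genes could have changed 1.5-fold unseen.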
